A study of Mus musculus with 6 samples.

Results

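The genes described here are 38 interferon-stimulated antiviral effector genes, taken by symbol from the 24391 genes of the count files of a mouse melanoma study. All 38 were found. Many encode proteins that act directly on viruses or viral RNA, or modify other proteins, and some have other or less settled roles. The set leaves out the sensors, STAT and IRF factors, GTPases of the GBP and IRG families and antigen presentation genes. The cells were tumour cells from iBIP mice, which carry Tyr-CreERT2 (Cre recombinase, active with 4-OHT and driven by the melanocyte promoter Tyr), Rosa26-rtta, a TetO-driven mutant BRAF transgene that doxycycline turns on, and several floxed alleles, among them INK/ARF. Both groups share these alleles, doxycycline feeding and 4-OHT on the ears, where the tumours arose. The KMT2D WT group (3 libraries) came from iBIP;KMT2D+/+ mice and the KMT2D KO group (3 libraries) from iBIP;KMT2DL/L mice, in which both copies of Kmt2d, a histone H3 lysine methyltransferase gene of enhancers, are floxed. The cells were grown in high-glucose DMEM. The background was mixed FVB and B6, and no age is given. No label says whether libraries of 1 group are separate cultures, tumours or mice, so the p-values reflect only how far these libraries spread, possibly for technical reasons, and the effect of genotype cannot be told apart from that of the tumour of origin. The labels' extraction text names cerebellar tissue, while every other label names tumour cells.

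Type I interferons bind a receptor on the cell surface, the kinases JAK1 and TYK2 phosphorylate STAT proteins, and these join IRF9 in a complex that binds the interferon-stimulated response element (ISRE) in front of target genes. Type III interferons use another receptor and the same complex. The target genes include the effectors described here. Many of their proteins bind or cut foreign RNA, stop translation, use up or alter nucleotides, hold budding particles at the membrane, or attach the ubiquitin-like protein ISG15 to other proteins. Many tumour cells keep part of this program on at a low level without any infection.

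The sequences in front of these genes are shown first because the ISRE is the DNA element that the family is known for. RefSeq promoter windows (GRCm38.p6, 250 bases before to 50 after a start) were at hand for 30 of the 38 genes, 37 windows in all. An ISRE-like pattern (GAAA, any 2 bases, then GAAA, or TTTC, any 2 bases, then TTTC on the other strand) stood in a window of 12 of the 30 genes (40.0%), against 403 of the 10884 tested genes with a window (3.70%). By window the share was 35.1% of 37 against 3.04% of 13865. In 10 of the 12 genes a match lay before the start, and in Eif2ak2 and Trim21 it lay only after it. The stretches below run 5′ to 3′ on the gene's strand with the matching letters in capitals, and were chosen to show matches that overlap or repeat.
Isg15: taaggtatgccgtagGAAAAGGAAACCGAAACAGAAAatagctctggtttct
Bst2: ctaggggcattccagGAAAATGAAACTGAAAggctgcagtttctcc
Ifit1: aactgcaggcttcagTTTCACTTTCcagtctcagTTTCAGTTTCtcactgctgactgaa
Ifit3: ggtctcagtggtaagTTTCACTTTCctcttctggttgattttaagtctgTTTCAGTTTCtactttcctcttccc
Oas1a: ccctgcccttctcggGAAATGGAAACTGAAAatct
Oas1g: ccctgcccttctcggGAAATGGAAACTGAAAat

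Isg15 (chr4:156200860-156200911, minus strand) held 3 overlapping matches, from 78 to 57 bases before the start. Bst2 (chr8:71537572-71537617, minus strand) held 2 overlapping matches. Ifit1 (chr19:34640770-34640828, plus strand) and Ifit3 (chr19:34583358-34583431, plus strand) each held 2 separate matches in the opposite orientation. The stretches of Oas1a (chr5:120907526-120907560, minus strand) and Oas1g (chr5:120887614-120887646, minus strand) were identical over 33 bases, with the last matching letter 5 and 3 bases before the start. For these gene copies only the printed stretches were compared, not the rest of the windows. The letters TTCNNNGAA, a palindrome known as the GAS element, stood in a window of 8 of the 30 genes (26.7%), against 8.35% of tested genes. The 2 patterns can share bases. The 12 genes with the ISRE-like pattern had a median log2 fold change (KMT2D KO minus KMT2D WT) of 4.77, and the 18 with a window but no match one of 1.97. Neither group was uniform: Eif2ak2 and Trim21 had the pattern and changes of 0.69 and 1.04, while Oasl1 had the largest change of all and no match in its window. Oas1a and Oas1g, near copies with the pattern, and Oasl1 and Cmpk2, without it, passed the low-count filter only through KMT2D KO. They therefore had to differ. The 8 genes without a window, with changes from 1.36 (Parp14) to 7.02 (Mx1), are in neither group. A link between pattern and change was not tested. A match is a description of these letters, not a bound site.

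Levels are given as CPM, a gene's counts per unit of library size after scaling by TMM (a factor that balances the bulk of genes between libraries), and the KMT2D WT libraries held 43168605 to 59360068 counted fragments, the KMT2D KO libraries 55594979 to 79718782. Kmt2d itself had 79.7, 87.6 and 101 CPM in KMT2D WT and 73.0, 69.3 and 79.8 CPM in KMT2D KO, so the groups overlapped, although edgeR called the gene lower (-0.27 on the log2 scale, SE 0.08, adjusted p = 0.0075). The files hold gene totals, in which loss of some exons need not show. Of 14579 tested genes 71.0% were called by edgeR at an adjusted p under 0.05, 35.4% higher and 35.5% lower, and the groups did not overlap for 74.3%, so a call alone is common in this comparison.

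The antiviral effector genes were higher in KMT2D KO in 38 of 38 cases. Among all tested genes the share called higher was 35.4%. The list was chosen with earlier results of these data known, so this count describes the listed genes and is not a test of them. The 3 libraries of KMT2D KO lay above all 3 of KMT2D WT for each of the 38, which held for 37.2% of tested genes. The median log2 fold change (KMT2D KO minus KMT2D WT) was 2.96, beside 0.004 over all tested genes. Their summed level was 770 to 815 CPM in the KMT2D WT libraries and 4321 to 4351 CPM in the KMT2D KO libraries, 5.44 times as high in the mean.

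By size the changes ranged widely. A log2 fold change above 1 with a call was found in 34 of the 38 (13.9% of tested genes), one above 2 in 22 (6.20%), one above 3 in 19 (3.29%) and one above 5 in 9 (1.08%). The 4 genes called with a log2 fold change under 1 were Ifit2, Eif2ak2, Uba7 and Trim25. All 38 passed the filter on low counts, but Oas1a, Oas1g, Oasl1 and Cmpk2 did so only through KMT2D KO and therefore had to differ. The other 34 were all called higher, with a median of 2.44.

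**Figure D1:**
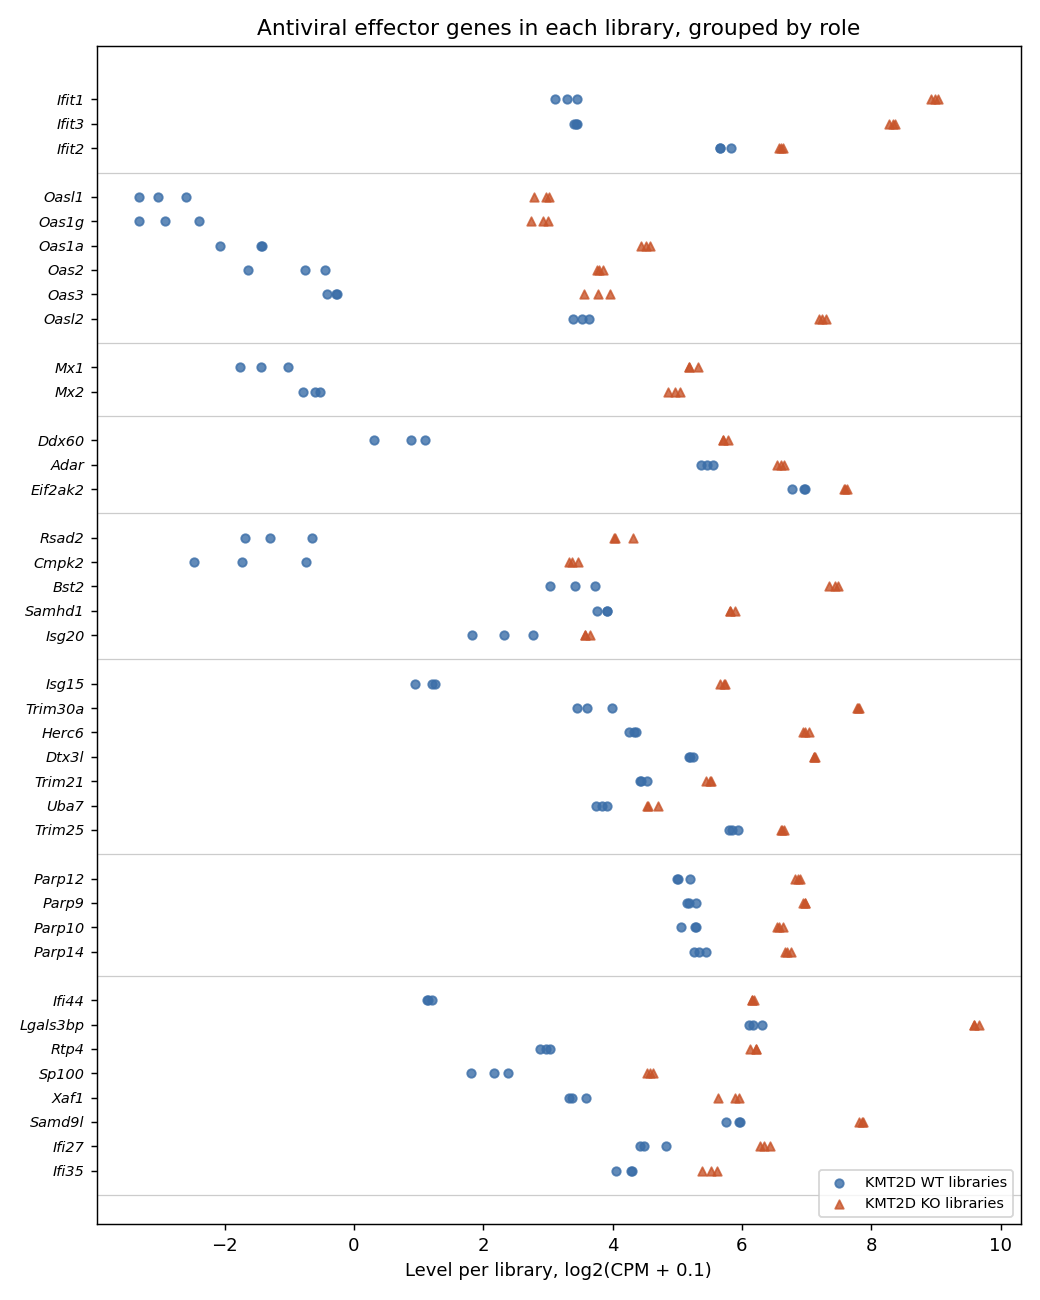
Level of each gene in each library as log2(CPM + 0.1), circles for KMT2D WT and triangles for KMT2D KO, grouped by role. In every row the 3 triangles lie to the right of the 3 circles, closest for Eif2ak2, Trim25, Uba7 and Ifit2 and farthest apart for Mx1 and Oas1a.

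The IFIT proteins bind the ends of foreign RNA and block its translation, and their genes lie side by side on chromosome 19. Ifit1 (mm9 chromosome 19, 34715379 to 34724499) had 9.73, 8.53 and 10.8 CPM in KMT2D WT and 521, 506 and 485 CPM in KMT2D KO. The level in KMT2D KO was 52.3 times that in KMT2D WT (log2 fold change 5.71, SE 0.08, adjusted p = 1.7e-16). Ifit3, which stabilises IFIT1 complexes, rose from 10.7 ± 0.222 to 320 ± 10.1 CPM (SD, n = 3; log2 fold change 4.91, SE 0.06).

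Ifit2, in the same cluster (34625184 to 34651024), stood apart from both. It had 56.6, 50.2 and 50.6 CPM in KMT2D WT and 94.9, 96.7 and 99.0 CPM in KMT2D KO, which do not overlap. The log2 fold change was 0.88 (SE 0.06, adjusted p = 6.4e-09). Per kilobase of exon, Ifit2 was the highest of the 3 genes in KMT2D WT at 13.3 CPM per kb, against 3.67 for Ifit1 and 5.35 for Ifit3. In KMT2D KO it was the lowest at 24.5 CPM per kb, against 191 and 160. No ISRE-like letters stood in either promoter window of Ifit2, while the windows of Ifit1 and Ifit3 held the stretches shown above. Whether this bears on the smaller change of Ifit2 was not tested.

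Oligoadenylate synthetases make a messenger that activates RNase L, which cuts RNA, and the OAS-like proteins of the same family act in other ways. In this class 6 of 6 genes were called higher with a log2 fold change above 3 (3.29% of tested genes). Of these, Oas1a, Oas1g and Oasl1 passed the filter only through KMT2D KO and therefore had to differ. Oasl1 (chromosome 5, 115373249 to 115387920), an OAS-like gene that in mice restrains translation of Irf7, had 0, 0.0646 and 0.0224 CPM in KMT2D WT and 7.96, 7.72 and 6.81 CPM in KMT2D KO. Its log2 fold change of 7.86 (SE 0.35, adjusted p = 3.7e-11) was the largest of the 38 and stood at rank 28 of all 14579 tested genes. The KMT2D WT value rests on 5 fragments over the 3 libraries, so the size of the fold is imprecise, and it lay between 7.27 and 9.31 over the alternatives.

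Oas1g, an Oas1 copy, gave much the same picture, with 6 fragments in KMT2D WT and 7.92, 7.49 and 6.58 CPM in KMT2D KO (log2 fold change 7.57, SE 0.36). Oas1a, whose enzyme is active, rose from 0.226 ± 0.0778 to 22.8 ± 1.17 CPM (6.65, SE 0.18). Because the 2 genes are near copies and fragments mapping to several places are left out by default, their split is uncertain. Oas2 rose from 0.448 to 13.8 CPM (4.94) and Oas3, which encodes the largest OAS enzyme, from 0.703 to 13.6 CPM (4.26).

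Oasl2 (chromosome 5, 115346943 to 115362254), beside Oasl1, was the only member of the class above 1 CPM in KMT2D WT. It had 12.4, 10.4 and 11.4 CPM there and 157, 147 and 151 CPM in KMT2D KO. Its log2 fold change of 3.74 (SE 0.07, adjusted p = 3.1e-15) was the smallest of the class. Per kilobase it was also the most abundant of the class in KMT2D KO at 48.3 CPM per kb, against 12.1 for Oas1a and 2.87 to 3.58 for Oas1g, Oas2, Oas3 and Oasl1.

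The Mx proteins are dynamin-like GTPases that trap viral nucleocapsids, Mx1 in the nucleus and Mx2 in the cytoplasm of mouse cells. Mx1 (chromosome 16, 97668642 to 97684513) had 0.393, 0.194 and 0.268 CPM in KMT2D WT and 36.2, 36.0 and 39.8 CPM in KMT2D KO (log2 fold change 7.02, SE 0.16, adjusted p = 1.2e-14). Mx2 (97757688 to 97782508) had 0.479, 0.597 and 0.559 CPM and 28.9, 33.0 and 31.2 CPM (5.83, SE 0.13, adjusted p = 1.3e-14). Both were near silent in KMT2D WT, and their length-scaled levels in KMT2D KO were close, at 12.6 and 12.8 CPM per kb. Many laboratory mouse strains carry defective Mx alleles, so a transcript level does not give the level of working protein.

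Among the genes that answer double-stranded RNA the changes were of unlike size. Ddx60 (chromosome 8), a helicase-like factor, had 1.74, 2.05 and 1.14 CPM in KMT2D WT and 52.3, 55.3 and 52.3 CPM in KMT2D KO (log2 fold change 4.98, SE 0.13, adjusted p = 9.3e-14). Eif2ak2 (chromosome 17), which encodes PKR, the kinase that stops translation through eIF2 alpha, was already abundant in KMT2D WT. It had 126, 109 and 124 CPM there and 197, 192 and 193 CPM in KMT2D KO, and its change of 0.69 (log2, SE 0.06, adjusted p = 7.2e-08) was the smallest of the 38. Adar, the adenosine deaminase that edits double-stranded RNA and keeps it from setting off sensors, rose from 43.9 ± 2.78 to 97.0 ± 4.07 CPM (SD, n = 3; 1.15, SE 0.06). Exons of Adar overlap those of Chrnb2, and fragments in the overlap are left out by default.

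The next 5 genes act on nucleotides, RNA or membranes. Rsad2 (viperin, chromosome 12, 27127608 to 27141317) makes an altered nucleotide that ends viral RNA chains. It had 0.308, 0.210 and 0.537 CPM in KMT2D WT and 19.9, 16.3 and 16.2 CPM in KMT2D KO (log2 fold change 5.69, SE 0.21, adjusted p = 4.7e-12). Cmpk2, a mitochondrial nucleotide kinase gene beside it (27154080 to 27164702), rose from 0.259 ± 0.214 to 10.4 ± 0.511 CPM (SD, n = 3; 5.30, SE 0.30). The pair had like changes from like levels, but Cmpk2 passed the filter only through KMT2D KO and therefore had to differ. Its KMT2D WT value rests on 29, 5 and 9 fragments, and its log2 fold change lay between 4.82 and 6.28 over the alternatives.

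Bst2 (tetherin, chromosome 8, 74058161 to 74061336) holds budding particles at the cell surface. It had 13.1, 10.6 and 8.12 CPM in KMT2D WT and 174, 179 and 163 CPM in KMT2D KO (log2 fold change 4.01, SE 0.12, adjusted p = 3.1e-13), and at 225 CPM per kb it was the most abundant of the 5 in KMT2D KO. Samhd1, which breaks down deoxynucleotides, rose from 14.5 ± 0.871 to 57.2 ± 1.84 CPM (SD, n = 3; 1.99, SE 0.07). Isg20, an RNA exonuclease gene, changed least among them, with 3.46, 4.91 and 6.71 CPM against 11.7, 11.8 and 12.4 CPM in KMT2D KO. Its log2 fold change was 1.26 (SE 0.18, adjusted p = 1.4e-05), with the adjusted p at most 0.00059 over the alternatives.

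ISG15 is joined to other proteins by an activating enzyme (Uba7) and ligases (in mice Herc6), and TRIM ligases attach ubiquitin. Isg15 (chromosome 4, 155573533 to 155574927) had 2.21, 1.83 and 2.28 CPM in KMT2D WT and 53.0, 53.4 and 50.2 CPM in KMT2D KO (log2 fold change 4.64, SE 0.10, adjusted p = 7.8e-15), the largest change and, at 69.1 CPM per kb, the highest length-scaled level of its class in KMT2D KO. The conjugation enzymes changed less. Herc6 rose from 19.8 ± 0.784 to 127 ± 3.73 CPM (SD, n = 3; 2.68, SE 0.06) and Uba7 from 14.1 ± 0.846 to 24.1 ± 1.59 CPM (0.77, SE 0.09).

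The ubiquitin ligases split by size of change. Trim30a, a mouse TRIM gene that dampens Toll-like receptor signalling, rose from 12.9 ± 2.62 to 222 ± 2.84 CPM (SD, n = 3; 4.10, SE 0.10). Dtx3l rose from 36.9 to 139 CPM (1.92) and Trim21, the antibody receptor of the cytosol, 2.05-fold to 45.0 CPM (1.04). Trim25, a ligase of the RIG-I pathway, changed least. It had 55.7, 57.3 and 61.1 CPM in KMT2D WT and 100, 97.2 and 98.5 CPM in KMT2D KO, which is 0.77 on the log2 scale (SE 0.06, adjusted p = 1.4e-08), and the groups did not overlap.

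The 4 PARP genes encode enzymes or partners that place ADP-ribose on proteins or RNA, and they moved within a narrow range. Parp12 (chromosome 6) had 32.0, 32.1 and 36.6 CPM in KMT2D WT and 119, 116 and 113 CPM in KMT2D KO (log2 fold change 1.79, SE 0.07, adjusted p = 3.1e-12). Parp14 (chromosome 16) had 43.4, 38.3 and 40.1 CPM and 103, 101 and 108 CPM (1.36, SE 0.06, adjusted p = 5.2e-11). Parp9 (1.76) and Parp10 (1.38) lay between them, so these genes spanned 1.36 to 1.79 where the whole set spanned 0.69 to 7.86.

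Parp9 and Dtx3l encode the partners of 1 complex and their genes share overlapping first exons on chromosome 16 (Dtx3l 35926601 to 35939113, Parp9 35938556 to 35972707). They had 36.8 ± 1.93 and 36.9 ± 0.708 CPM in KMT2D WT and 125 ± 1.35 and 139 ± 1.09 CPM in KMT2D KO (SD, n = 3). The log2 fold changes of 1.76 (SE 0.06) and 1.92 (SE 0.05) were of like size. Fragments in the overlapping part are left out by default, so both levels may be too low.

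The remaining 8 genes have other or less settled roles. Ifi44 (chromosome 3), a gene of a microtubule-associated protein, had 2.12, 2.08 and 2.21 CPM in KMT2D WT and 72.4, 71.5 and 71.0 CPM in KMT2D KO (log2 fold change 5.07, SE 0.08, adjusted p = 5.2e-16). Lgals3bp (chromosome 11), which encodes a secreted galectin-binding glycoprotein, had the highest length-scaled level of the 38 in both groups. It had 69.0, 72.0 and 79.4 CPM in KMT2D WT and 771, 766 and 808 CPM in KMT2D KO (3.41, SE 0.06, adjusted p = 1.8e-15). It alone made up 18.0% of the summed CPM of these genes in KMT2D KO, against 9.23% in KMT2D WT.

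Rtp4, a receptor transporter protein gene, rose from 7.69 to 72.7 CPM (3.24), Sp100, a nuclear body component, from 4.31 to 23.8 CPM (2.48), and Xaf1, a gene of an antagonist of the apoptosis inhibitor XIAP, from 10.7 to 56.8 CPM (2.41). Samd9l, a translation-blocking host factor gene, rose from 59.4 to 230 CPM (1.96) and Ifi27, a small mitochondrial protein gene, 3.40-fold to 81.5 CPM (1.76). Exons of Ifi27 overlap those of Ifi27l2a. Ifi35 changed least of the 8, with 19.5, 19.4 and 16.4 CPM in KMT2D WT and 45.7, 49.1 and 41.5 CPM in KMT2D KO (1.30, SE 0.09, adjusted p = 4.6e-09).

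**Figure D2:**
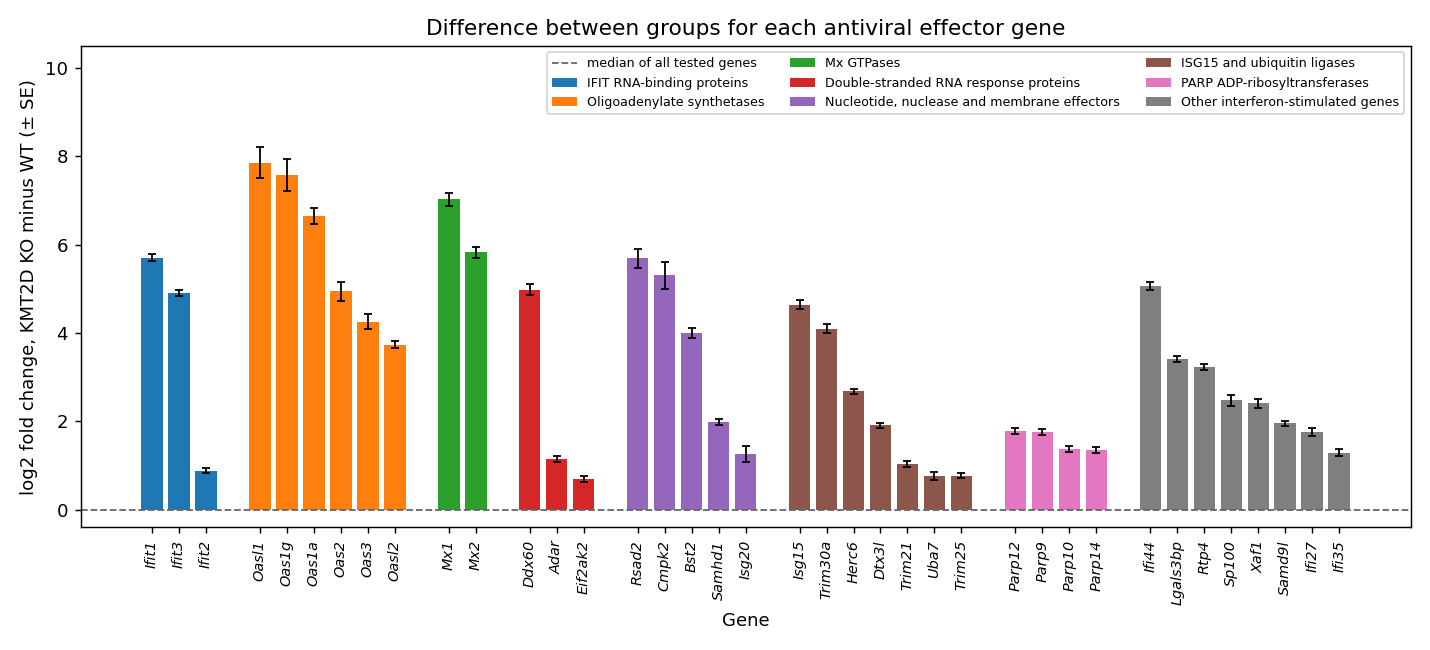
log2 fold change (KMT2D KO minus KMT2D WT) with its SE from edgeR for each gene, coloured by role, with the median of all tested genes (0.004) as a dashed line. Bars run from 0.69 for Eif2ak2 to 7.86 for Oasl1, and the 4 PARP bars lie close together between 1.36 and 1.79.

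The genes are next described by their level in KMT2D WT, which is also the denominator of the fold change, so a trend over these bands is in part built in and is given as a description. The 9 genes under 1 CPM there (Oas1a, Oas1g, Oas2, Oas3, Oasl1, Mx1, Mx2, Rsad2 and Cmpk2) had log2 fold changes of 4.26 to 7.86 with a median of 5.83, and 4 of them (Oas1a, Oas1g, Oasl1 and Cmpk2) are those that passed the filter only through KMT2D KO and had to show a large rise. The 18 genes at 1 to 30 CPM spanned 0.77 to 5.71 with a median of 2.96. The 11 genes at 30 CPM or more spanned 0.69 to 3.41 with a median of 1.38.

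Over the 38 genes, Spearman's rho between the KMT2D WT level per kilobase and the log2 fold change was -0.76. This describes genes of the same libraries, and the fold change contains the KMT2D WT level, so a negative value is no finding. The order of levels was partly kept, with a rho of 0.70 between the levels per kilobase in the 2 groups. In KMT2D KO the 9 scarce genes reached 7.33 to 37.3 CPM, below the 95.9 to 781 CPM of the 11 abundant ones, while the genes between them, at 12.0 to 504 CPM, overlapped with both. From the lowest to the highest gene the length-scaled level spanned 2485-fold in KMT2D WT and 125-fold in KMT2D KO.

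The top of the order changed in part. In KMT2D WT the 5 highest per kilobase were Lgals3bp (33.9 CPM per kb), Eif2ak2 (27.7), Ifi27 (22.8), Bst2 (13.9) and Ifi35 (13.6). Bst2, Ifi35 and the next gene, Ifit2 (13.3), are neighbours in this order that differ by less than the spread of Bst2 between libraries. In KMT2D KO the 5 highest were Lgals3bp (360 CPM per kb), Bst2 (225), Ifit1 (191), Ifit3 (160) and Ifi27 (77.4). Eif2ak2 stood at rank 10 there with 44.8 CPM per kb.

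**Figure D3:**
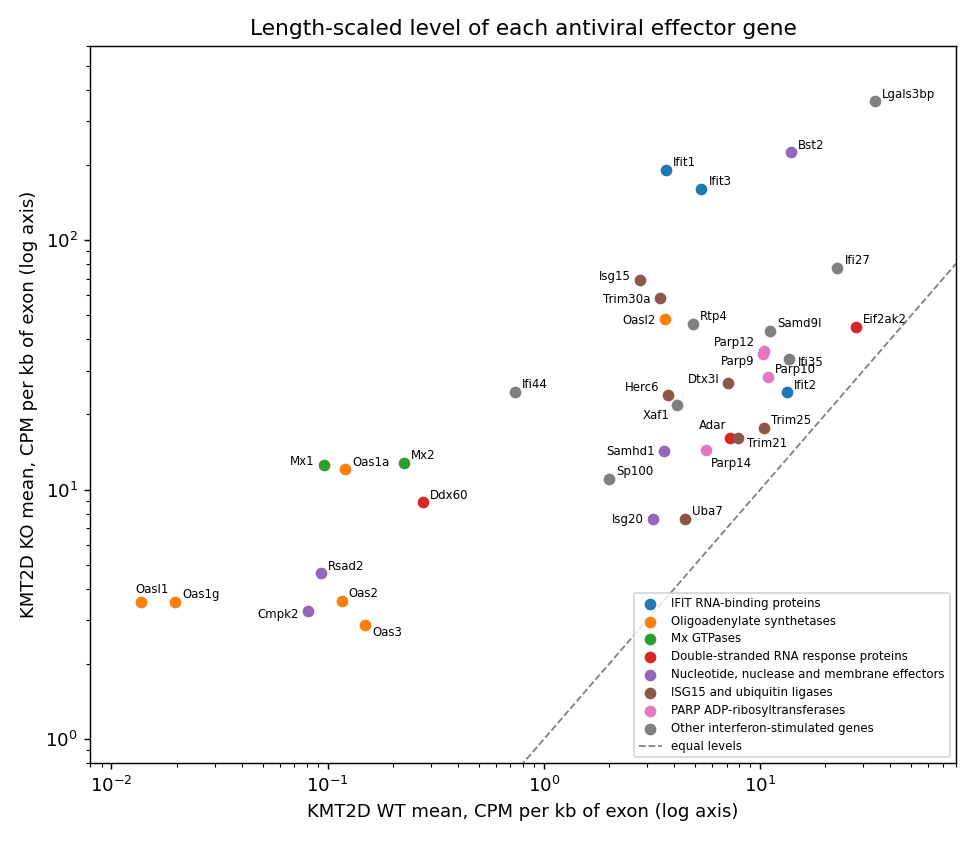
Mean CPM per kilobase of exon of each gene in KMT2D WT (x axis) and KMT2D KO (y axis), both on log axes and coloured by role, with a dashed line of equal levels. All 38 points lie above the line, Eif2ak2, Trim25, Uba7 and Ifit2 nearest to it, and the points under 1 CPM per kb in KMT2D WT are those of the OAS class other than Oasl2, both Mx genes, Rsad2, Cmpk2, Ddx60 and Ifi44.

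Libraries of a group were close to each other for these genes. In sum they took 0.0803% to 0.0845% of all counts in the KMT2D WT libraries, and 0.413% to 0.419% in those of KMT2D KO. The coefficient of variation of CPM over the 3 libraries had a median of 8.78% in KMT2D WT and 3.34% in KMT2D KO. The highest values were 113% for Oasl1 in KMT2D WT, from 5 fragments in all, and 13.7% for Oas3 in KMT2D KO. The median deviation of the 38 genes from their group's mean was at most 0.04 on the log2 scale in any library.

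The genes that start the pathway were barely read. Of 21 interferon genes in the files, 13 had no count in any library, and none of the other 8 passed the filter. Ifnb1, which encodes interferon beta, had 4, 0 and 0 fragments in KMT2D WT and 17, 17 and 6 in KMT2D KO, or 0.0228 ± 0.0395 and 0.204 ± 0.0834 CPM (SD, n = 3). With no filter its log2 fold change was 3.04 (SE 1.33, edgeR adjusted p = 0.043). Ifna13 had 2, 0 and 8 fragments in KMT2D WT and 0 in KMT2D KO, while Ifna2, Ifna4, Ifna5, Ifne, Ifnk and Ifng had 1 to 4 fragments over all libraries. A group with 0 fragments allows up to 3 over its libraries, a level of 0.0182 CPM for KMT2D WT and 0.0157 CPM for KMT2D KO.

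Of 6 interferon receptor genes, 5 were called lower in KMT2D KO (35.5% of all tested genes) and 1 higher (35.4%), with a median of -0.78. Among the lower ones, Ifnar2, Il10rb, Ifnar1 and Ifngr2 lie close together on chromosome 16 (91373028 to 91564252), so these calls are not from separate places. The median over all tested genes of that chromosome was -0.44. Ifnlr1, a chain of the receptor for lambda interferons, fell from 1.25 ± 0.744 to 0.356 ± 0.192 CPM (SD, n = 3; log2 fold change -1.77), Ifngr2, of the gamma receptor, from 124 to 49.7 CPM (-1.32) and Il10rb, shared by the lambda and IL-10 receptors, from 51.2 to 21.6 CPM (-1.25). The chains of the alpha and beta receptor, named here with their values known, fell less, Ifnar1 from 155 to 125 CPM (-0.31) and Ifnar2 from 168 to 145 CPM (-0.20). Ifngr1, likewise chosen, rose from 62.5 to 73.8 CPM (0.24). Of the 13 alternatives, library size scaling alone ended that call (0.13, adjusted p = 0.091).

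Of 12 JAK-STAT and IRF genes, 9 were higher (35.4% of all tested genes), 1 was lower (35.5%) and 2 missed the threshold, and the median was 0.65. Among the largest were Irf7, the factor that amplifies interferon production, with 6.65, 5.31 and 5.90 CPM in KMT2D WT and 104, 104 and 107 CPM in KMT2D KO (log2 fold change 4.14, SE 0.08), and Stat2, which encodes a subunit of the ISRE-binding complex (11.5 to 82.9 CPM, 2.86). Chosen after its value was seen, Irf9, the DNA-binding subunit of that complex, rose from 13.5 to 72.8 CPM (2.43). Tyk2, a kinase of the receptor, fell from 45.8 to 35.8 CPM (-0.36). Irf2 (0.39) was not called with library size scaling, without KMT2D WT replicate 1 (0.24, adjusted p = 0.083) or without KMT2D KO replicate 3 (0.35, adjusted p = 0.083).

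Of 12 nucleic acid sensors and adaptors, 7 were higher (35.4% of all tested genes), 1 was lower and 4 missed the threshold, and the median was 0.56. The 8 calls among 12 are near the 71.0% called over all tested genes. Zbp1, a sensor of Z-form nucleic acids, rose from 2.32 to 42.0 CPM (4.16), Dhx58, a regulator of the RNA sensors, from 2.91 to 52.4 CPM (4.14) and Ifih1, the sensor MDA5 of long double-stranded RNA, from 6.51 to 94.5 CPM (3.87). The gene called lower was Ikbke, a kinase that acts on IRF factors (81.3 to 38.4 CPM, -1.08). Of 9 brakes of the pathway, 6 were higher (35.4% of all tested genes), 0 lower and 3 missed the threshold by edgeR, and the median was 0.77. The 6 calls among 9 are likewise near the 71.0% over all tested genes. They included Usp18, which removes ISG15 and blocks the receptor (2.23 to 62.5 CPM, 4.82), Socs3, an inhibitor of cytokine receptor kinases (128 to 1078 CPM, 3.07), and Nlrc5 (2.56 to 7.66 CPM, 1.59). The brake gene Ptpn6 (-0.87) was not called by edgeR and was called lower by DESeq2 (adjusted p = 0.048), by limma voom (0.042) and with library size scaling (0.033).

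The genes beside the effectors on the chromosomes were read as a measure of how local the change was. The nearest tested genes on either side, 59 in all, were called higher in 31 cases and lower in 12, while 16 missed the threshold, and the median was 0.44. By share 72.9% were called (71.0% of tested genes) and 52.5% called higher (35.4% of tested genes). Several of the largest rises were relatives of the gene they lie beside, among them Ifi27l2a (0.0669 to 4.95 CPM, 6.29), Trim30d (0.591 to 14.3 CPM, 4.60), Oas1c (0.700 to 7.05 CPM, 3.29), Oas1b (0.648 to 5.23 CPM, 3.00) and Sp140 beside Sp100 (5.33 to 61.1 CPM, 3.53). The KMT2D WT mean of Ifi27l2a was under the cutoff of the filter on low counts (0.173 CPM). Ifi27l2a passed through KMT2D KO and therefore had to differ.

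Other neighbours with a log2 fold change above 2 were AW011738 (0.732 to 24.1 CPM) and Agrn (67.9 to 285 CPM, 2.07) on either side of Isg15, Smtnl2 beside Xaf1 (3.62), Plvap beside Bst2 (2.55), Dtx1 beside Oas2 and Oas3 (2.14) and Bace2 beside Mx1 (2.00). Large falls were found beside effectors too. Sox11, the nearest tested gene above Rsad2 and Cmpk2 though 854431 bases from Cmpk2, fell by 7.63 on the log2 scale. Rph3a, beside Oas1a, fell by 5.15 from 0.812 to 0.0185 CPM, Masp1, beside Rtp4, fell from 395 to 33.4 CPM, and BC100451, beside Lgals3bp, fell by 3.06 from 16.7 to 1.99 CPM. Ifi27l2b fell by 3.07, a call that was lost without KMT2D KO replicate 1 or 2. The KMT2D KO means of Sox11, Rph3a and Ifi27l2b and the KMT2D WT mean of Dtx1 were under the filter cutoff of 0.173 CPM. Each of these genes passed through the other group and therefore had to differ.

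Genes at the edges of clusters moved both ways. Parp14, Dtx3l and Parp9 (1.36, 1.92 and 1.76) lie between Hspbap1 (-0.47) and Kpna1 (-1.04), both called lower. In the Ifit cluster the neighbours were Lipa (0.45, called higher) and the Ifit relatives Ifit1bl1 (0.21, not called) and Ifit1bl2 (1.14, called higher). Chromosomes 5 and 16, which hold 6 effectors each, had medians of -0.36 and -0.44 over all their tested genes, and chromosome 6, which holds 3, had 0.42.

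**Figure D4:**
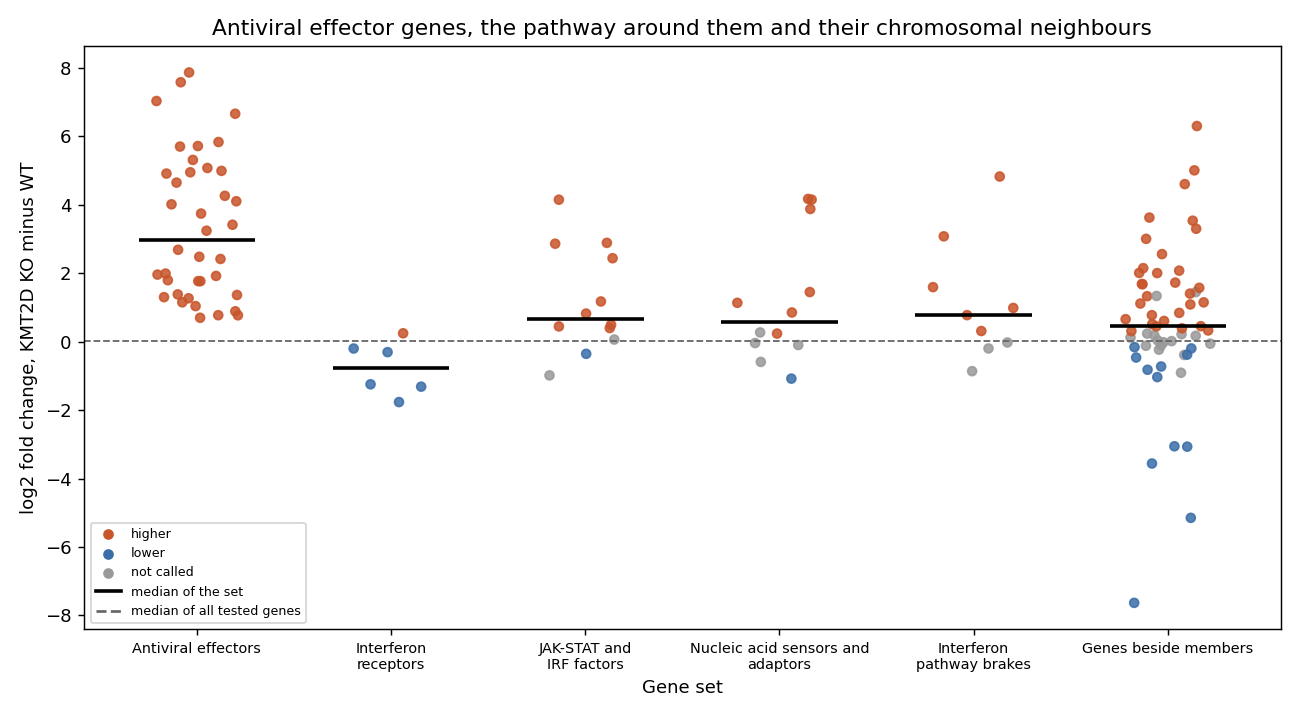
log2 fold change (KMT2D KO minus KMT2D WT) of the effectors, of 4 lists of pathway genes and of the tested genes beside the effectors, 1 point per gene coloured by its edgeR call, with the median of each set as a bar and that of all tested genes as a dashed line. All effector points are above 0 and their bar is at 2.96, 5 of 6 receptor points are below 0, and the neighbours spread from -7.63 to 6.29.

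In bulk libraries, fewer cells of a type and less RNA per cell cannot be told apart. Immune cells also express many of these genes. The 15 immune cell markers summed to 29.6 to 35.4 CPM over the KMT2D WT libraries and to 10.8 to 12.8 CPM over those of KMT2D KO. Of the 8 tested, 6 were lower (35.5% of all tested genes), 1 higher and 1 not called, and Ptprc, which encodes the common leukocyte antigen, fell from 0.517 to 0.107 CPM. The gene called higher was Cd4 (0.247 to 0.623 CPM). Siglech, the marker of plasmacytoid dendritic cells, had 5 fragments in KMT2D WT and 0 in KMT2D KO. Nkg7, of killer cells, had 6 and 0. Each was read in 1 KMT2D WT library only, and neither was tested.

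Melanocyte markers were mostly near 0 in both groups. The group means of Tyr, Tyrp1 and Dct did not exceed 0.0765 CPM and Sox10 had 0.444 and 0.300 CPM, while Mitf had 15.4 in KMT2D WT and 53.2 in KMT2D KO. Of the 4 tested, 2 were called higher (35.4% of all tested genes), Mitf and Mlana, and 2 were not called. Mlana, at 0.0507 and 0.360 CPM, passed the filter only through KMT2D KO. Fibroblast markers (8 genes) summed to 5006 to 5184 CPM in the KMT2D WT libraries and 14160 to 14720 CPM in those of KMT2D KO. Of these, 6 were higher (35.4% of all tested genes) and 2 lower (35.5%). Most of the sum came from Col1a1, which rose from 1283 to 3314 CPM, and Col1a2, from 2808 to 9385 CPM. Fap (0.238 to 0.549 CPM) and Lum (1.30 to 0.527 CPM) were scarce, and Dpt fell from 44.9 to 0.839 CPM (-5.69). None of the 8 was at 0. Schwann cell markers (6 genes) summed to 38.0 to 43.0 and 168 to 182 CPM, with 4 higher (35.4% of all tested genes), 1 lower (35.5%) and 1 not called. Endothelial markers (5 genes) summed to 1.12 to 2.29 CPM in the KMT2D WT libraries and 0.508 to 1.03 CPM in those of KMT2D KO. Of the 2 tested, Pecam1 was called lower (35.5% of all tested genes) and Vwf was not called. Both passed the filter only through KMT2D WT. Of 6 keratinocyte markers 1 was higher (35.4% of all tested genes), 1 lower (35.5%) and 4 not called. The part of these cell types in the difference of the effectors was not tested.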

How the data were processed

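The 6 deposited files hold whole-number counts of fragments per gene, which the authors obtained by running featureCounts 1.5.2 on exons (mm9), per the file headers. The submitters' processing notes also list STAR and HTSeq, without roles or versions. No strand, multi-mapping or overlap option was set, per the file headers, so fragments of both strands were counted. Coordinates of genes are mm9 and promoter sequences are from RefSeq tables of GRCm38.p6.

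Counts were tested with edgeR 4.0.16 (glmQLFit and glmQLFTest, R 4.3.3) after TMM scaling and its default filter on low counts, which left 14579 genes, in a model of group alone. Adjusted p-values are Benjamini-Hochberg over all tested genes, and SE is the log2 fold change divided by the square root of F. The fit was tested on simulated data. Members and lists were chosen with earlier results of these data known. In each role class, values in every library are given for the largest and smallest change and for the highest length-scaled level in KMT2D KO, and up to 3 called genes of each pathway list are named. Some genes that this rule takes are not reported here. Of the listed genes, 4 stand in the files under a newer symbol. No library repeated another. Alternatives were RLE factors, library size, DESeq2 1.42.0, limma voom 3.58.1, 2 other filters, the replicate number as a block and leaving out each library. Depth limits genes with few fragments, and the floor of 3 fragments covers counting error only.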

Additional observations from a re-analysis of the deposited data

How the results depend on the processing

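All 38 effector genes were called higher under each of the 13 alternatives, and all 494 single values kept direction and call. Their median log2 fold change was 2.85 with library size scaling, where the median of all tested genes was -0.11, and 2.95 to 2.99 under RLE factors, DESeq2, limma voom, the replicate block and no filter. It was 2.94 with a filter at a mean of 1 CPM. Leaving out 1 library gave 2.95 to 2.97 for this median, 9542 to 10798 called genes of all tested (10345 reported), 23 to 25 pathway genes called higher (23 reported) and 37 to 45 called neighbours (43 reported). Over the 34 genes that met the filter in both groups, a choice made after seeing the data, the median was 2.44, because the 4 genes left out had changes above 5. With the replicate block 38 effectors, 23 pathway genes higher and 44 neighbours were called, and the median was 2.96, so no effector call changed. Same-numbered libraries did not deviate together (Pearson r of 0.006, 0.067 and 0.047), so they share only a number. With library size scaling 19 pathway genes were called higher and 10 lower, against 23 and 7. Few fragments limit the folds of Oasl1, Oas1g and Cmpk2, which ranged over 7.27 to 9.31, 6.97 to 8.63 and 4.82 to 6.28.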
